A study of Mus musculus with 17 samples.

Results

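The genes described here are 41 that mark neurogenesis and immature neurons, matched in the deposited table by gene symbol, and 39 of them were among its 15355 genes. Neurog3 and Nhlh1 had no row and were not analysed here. The values come from RNA bound to tagged ribosomes in the mediobasal hypothalamus of POMC RiboTag mice, a line whose labels give no further allele and no driver construct. In such mice a ribosomal protein carries an HA tag in cells where the driver is or has been active, and an antibody pulls down the RNA being translated there. All groups share this tag. Dams were fed either standard chow or, in the HFD groups, a diet with 45% fat (high-fat diet, HFD), and offspring were compared by this diet and by age. Offspring were taken on postnatal day 0 (P0, birth) or day 21 (P21, weaning). There were 5 chow P0, 5 HFD P0, 3 chow P21 and 4 HFD P21 libraries. Dams started the diet at 6 weeks of age, were mated 4 weeks later and ate it until the offspring were 21 days old. The labels call the samples biological replicates but name no animal, litter, pool, sex or library batch, so the p-values measure only the spread between these samples.

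Neurons are born from dividing progenitors that Sox2 and Notch signalling hold in an undifferentiated state. Proneural factors such as the neurogenins then start differentiation, and Sox4 and Sox11 switch on the genes of the newborn neuron. The young cell migrates and extends a growth cone with proteins such as doublecortin, stathmins and GAP43, which fade as synapses form. In the hypothalamus most neurons are born before birth, while arcuate projections grow during the early postnatal weeks. In the developing arcuate nucleus Pomc is also active for a time in progenitors of other neurons, so a Pomc-driven tag can mark more than mature POMC neurons.

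Values are in a CPM-like unit (reads relative to library size, scaled by the authors), and each library held 22.4 to 37.1 M reads (M, mega) counted to genes of the table. A value of 0 allows up to 3 reads, 0.0826 to 0.138 units, which covers counting error only. Pomc stood at 146, 224, 657, 891 and 1308 in chow P0, 90.7, 246, 102, 181 and 1057 in HFD P0, 4679, 3878 and 12069.6 in chow P21 and 9818, 8268, 7460.1 and 8528 in HFD P21 libraries. HFD P0 replicate 5 stood apart from the other HFD P0 libraries in Pomc and in several members. The diet differences at P0 of the members named there are therefore given with and without it. Its Pomc lay within the range of chow P0 replicates 3 to 5 (657 to 1308). Without it the HFD P0 libraries are all low in Pomc (90.7 to 246), while the chow P0 group keeps those replicates. Cartpt, the other peptide gene of these neurons, stood at 22.1, 15.9, 106, 7.21 and 8.89 in chow P0, 15.4, 11.6, 15.4, 16.7 and 7.93 in HFD P0, 834, 663 and 391 in chow P21 and 2761, 2139, 2287 and 1912 in HFD P21 libraries. Markers of other cells were present in every library, among them the astrocyte genes Apoe and Aldoc and the oligodendrocyte gene Mbp. At P0 Apoe stood at 677 to 1343 in chow and 759 to 1197 in HFD libraries, and Aldoc at 151 to 249 and 139 to 189. Apoe exceeded Pomc in chow P0 replicates 1 to 3 and in HFD P0 replicates 1 to 4. In the lists for POMC neurons, other hypothalamic neurons, astrocytes, radial glia, oligodendrocytes, microglia and vessels, no gene was at 0 in all 17 libraries.

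The 39 members together made up 2.19% to 2.62% of the summed values of each chow P0 library and 2.17% to 2.41% of each HFD P0 library. At P21 they made up 0.498% to 0.563% in chow and 0.548% to 0.587% in HFD libraries. No P21 library came near a P0 library in this sum, while the diets overlapped at both ages. Per kilobase of annotated exon, the highest member at P0 was Stmn1, at a mean of 2466 in chow and 2222 in HFD libraries. Gap43 (1600 and 1421 per kb), Tmsb10 (1325 and 1220) and Marcksl1 (1113 and 1180) followed. Neurog2 was the lowest member in chow P0 libraries, at 1.33 per kb, and Sox3 the lowest in HFD P0 libraries, at 0.894. At P21 Gap43 (628 in chow and 790 in HFD) and Stmn1 (623 and 678) were the highest per kb and Igfbpl1 the lowest, at 0.0441 and 0.189.

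**Figure D1:**
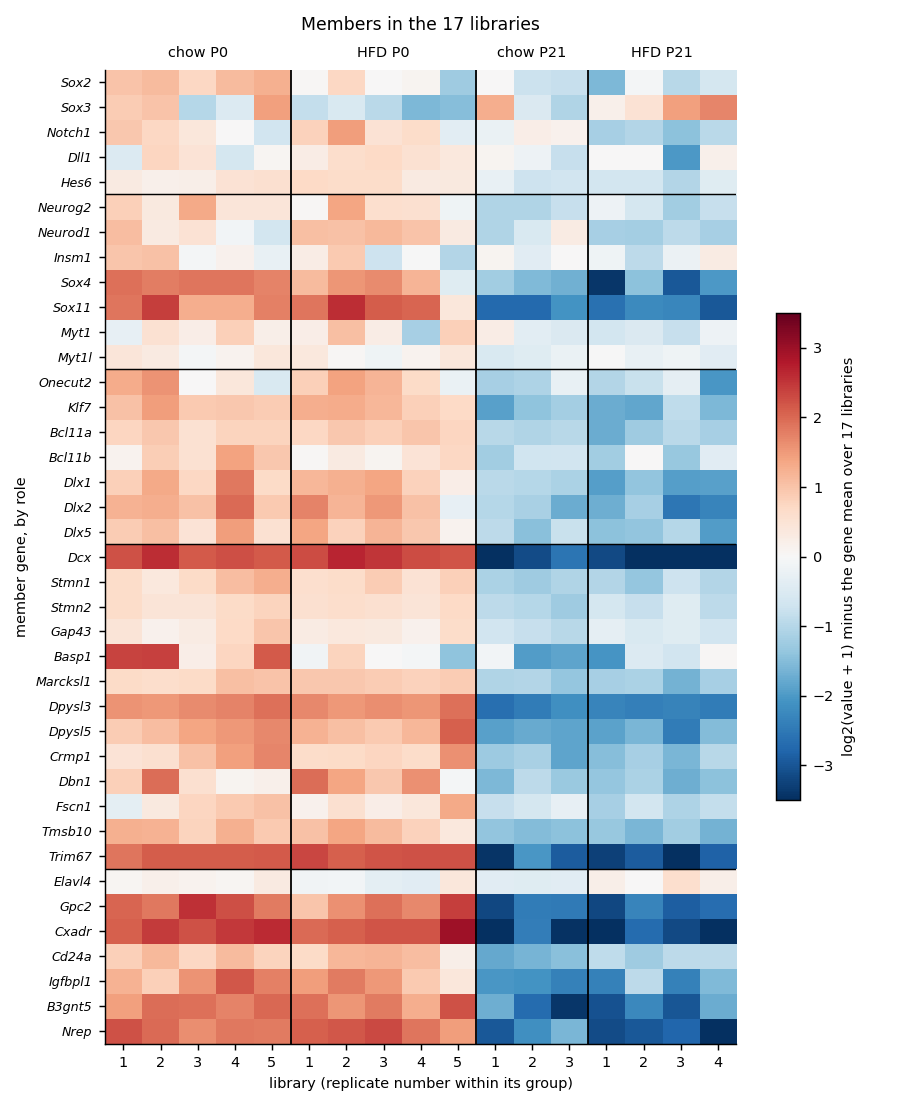
Heat map of the 39 members (rows, by role, separated by lines) in the 17 libraries (columns, by group and replicate number), as log2(value + 1) minus the mean of that gene over all libraries. Nearly all rows turn from red at P0 to blue at P21 in both diets; Sox3, Basp1 and Elavl4 do not follow that order, and HFD P0 replicate 5 differs from its group in rows such as Sox4, Sox11, Basp1 and Crmp1.

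The comparison of P21 with P0 asked how the ribosome-bound RNA of these genes changed between birth and weaning, separately in each diet. Between P0 and P21 in chow offspring 33 of the 39 members fell and none rose, with a median log2 change of -1.95 against -0.01 over all 14549 genes tested. Of all genes tested 36.1% passed the threshold, 17.7% of them downward and 18.3% upward as shares of all genes. In HFD offspring 31 members fell and 1 rose, with a median of -2.12 against -0.05 over 14245 genes, of which 50.9% passed (26.2% lower, 24.7% higher). The chow and HFD comparisons share no library, and 29 of the 39 members (74.4%) fell in both, against 14.1% of the 14109 genes tested in both. The members were chosen with earlier results of these data known, so these shares describe the list and do not test it. All chow P21 libraries lay below all chow P0 libraries in 31 members, where 17.9% of all genes did so and 19.3% lay wholly above. In HFD offspring they lay wholly below in 32 members and above in 1, where 19.7% and 19% of all genes did so. Changes are log2 differences of value + 1, which understate the change of genes near 0. Passing means a Benjamini-Hochberg adjusted p under 0.05 over all genes tested with limma, two-sided. In whole-tissue pull-downs such as these, fewer cells of a type and less RNA per cell cannot be told apart.

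Other cell types moved with age in the same libraries, and their part in the fall of the members was not tested. The summed level of 14 oligodendrocyte genes was 458 to 1093 in chow P0 and 8394 to 18730 in chow P21 libraries, and 367 to 488 and 4086 to 7508 in HFD libraries. The sum of 12 astrocyte genes was 1391 to 2295 and 5421 to 7895 in chow, 1509 to 2108 and 2439 to 4177 in HFD libraries. For 13 radial glia and tanycyte genes, led by Fabp7, the sum was 1261 to 2244 and 403 to 564 in chow, 1005 to 1751 and 289 to 429 in HFD libraries. The POMC list of 15 genes stood at 2449 to 6156 and 11660 to 19320 in chow, 2449 to 6350 and 17900 to 20360 in HFD libraries. Pomc rose by 3.65 on the log2 scale in chow and by 5.31 in HFD offspring, and Cartpt by 4.90 and 7.33.

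**Figure D2:**
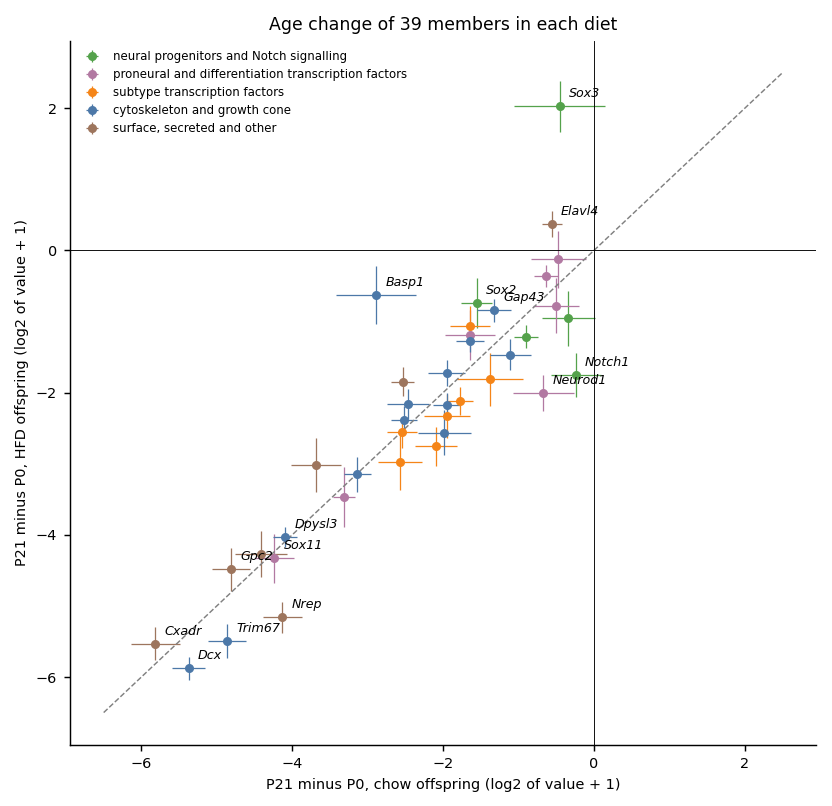
Log2 change from P0 to P21 of the 39 members in chow offspring (horizontal axis) and HFD offspring (vertical axis), coloured by role, with bars of 1 SE; the dashed line marks equal change. Most points lie in the lower left near the line, with Dcx at -5.37 and -5.88; Sox3 at 2.03 in HFD offspring and Basp1 at -2.89 and -0.62 lie above it.

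All 13 cytoskeleton and growth cone genes fell in chow offspring and 12 of 13 fell in HFD offspring, with medians of -2.46 and -2.17. Dcx encodes doublecortin, a microtubule-binding protein of migrating young neurons. Dcx stood at 401, 517, 379.8, 413 and 383 at P0 and at 5.96, 8.87 and 13.8 at P21 in chow offspring. In HFD offspring Dcx stood at 419.8, 544, 487, 424 and 396 at P0 and at 8.63, 6.35, 6.04 and 5.99 at P21. Every P21 library held far less Dcx than any P0 library, a P0 mean 43.8 times the P21 mean in chow and 67.3 times in HFD offspring. Its log2 change was -5.37 (SE 0.22, limma adjusted p = 1.36e-08) in chow and -5.88 (SE 0.16, limma adjusted p = 1.86e-11) in HFD offspring. Trim67, a brain-enriched ubiquitin ligase that acts in netrin-guided axon growth, stood second in this group by size of fall. Trim67 stood at 139, 165, 163, 164 and 165 at P0 and at 2.54, 8.24 and 4.04 at P21 in chow offspring. In HFD offspring Trim67 stood at 189, 161, 174, 176 and 176 at P0 and at 2.91, 4.03, 1.25 and 4.32 at P21. The ages did not overlap, and the log2 change was -4.87 (SE 0.25) in chow and -5.49 (SE 0.24) in HFD offspring.

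Dpysl3, Dpysl5 and Crmp1 encode collapsin response mediator proteins, which pass guidance signals to growth cone microtubules. Dpysl3 stood at 1009.7, 977, 1067, 1126 and 1279 at P0 and at 53.3, 61.1 and 76.0 at P21 in chow offspring. In HFD offspring Dpysl3 stood at 1091, 962, 1045, 979 and 1298 at P0 and at 66.8, 64.0, 66.3 and 60.6 at P21. Dpysl3 had the smallest p of any member in chow offspring (log2 change -4.09, SE 0.16, limma adjusted p = 1.36e-08), and in HFD offspring it changed by -4.03 (SE 0.14). Dpysl5 stood at 406, 461, 569, 621 and 696 at P0 and at 57.9, 63.6 and 60.2 at P21 in chow offspring. In HFD offspring Dpysl5 stood at 503, 452, 411, 492 and 924 at P0 and at 58.4, 71.0, 38.9 and 75.1 at P21. Dpysl5 was highest in HFD P0 replicate 5, the P21 libraries lay far below all P0 libraries, and it fell by 3.14 in chow and 3.15 in HFD offspring. Crmp1 stood at 942, 1002, 1381, 1826 and 2196 at P0 and at 278.5, 308 and 186 at P21 in chow offspring. In HFD offspring Crmp1 stood at 1058, 1070.2, 1131, 1054 and 2032 at P0 and at 242, 299, 223 and 341 at P21. In Crmp1 too HFD P0 replicate 5 was high for its group, and chow P0 replicates 4 and 5 were high in theirs. Its log2 change was -2.46 in chow and -2.16 in HFD offspring, with no overlap between ages.

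Stmn1 and Stmn2 encode stathmins, which bind tubulin and make microtubules dynamic. Stmn1 stood at 4142, 3410.1, 4215, 5545 and 6383 at P0 and at 1209.9, 1116 and 1264 at P21 in chow offspring. In HFD offspring Stmn1 stood at 3968, 4075, 4863, 3742 and 4707 at P0 and at 1299.9, 1037, 1593 and 1283 at P21. Stmn1 remained abundant at P21 but no P21 library reached a P0 library, and its log2 change was -1.95 (SE 0.24) in chow and -1.72 (SE 0.18) in HFD offspring. Stmn2 stood at 2542, 2237, 2239, 2575 and 2829 at P0 and at 872, 823 and 687 at P21 in chow offspring. In HFD offspring Stmn2 stood at 2403, 2519, 2427, 2223 and 2660.3 at P0 and at 1076, 930.5, 1219.5 and 863 at P21. Stmn2, the neuron-restricted stathmin, changed by -1.65 (SE 0.19) and -1.27 (SE 0.16), again with no overlap between ages.

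Gap43 and Basp1 are membrane-bound proteins of the growth cone that organise its actin. Gap43 stood at 2283, 1863, 2029, 2739 and 3273 at P0 and at 1051, 963 and 853 at P21 in chow offspring. In HFD offspring Gap43 stood at 2025, 2165, 2121, 1872 and 2634 at P0 and at 1352, 1150.4, 1251 and 1059 at P21. Gap43 had the smallest fall of this group in chow offspring after Fscn1, at -1.32 (SE 0.22), and -0.84 (SE 0.16) in HFD offspring, and the ages did not overlap. Basp1 stood at 2094, 2170.3, 483, 688 and 1819 at P0 and at 382, 104.2 and 112 at P21 in chow offspring. In HFD offspring Basp1 stood at 372, 699.6, 412, 388 and 154 at P0 and at 97.6, 296, 256 and 418 at P21. Basp1 was high in chow P0 replicates 1, 2 and 5, well above every other library, and among P21 libraries chow replicate 1 and HFD replicates 2, 3 and 4 were high. It fell by 2.89 in chow offspring (SE 0.53, limma adjusted p = 0.00101). In HFD offspring it changed by -0.62 (SE 0.41, limma adjusted p = 0.219) with overlap between ages, ran from -0.20 without HFD P21 replicate 1 to -0.93 without HFD P0 replicate 5, and passed in the latter fit (adjusted p = 0.0281). It was the member of this group that did not pass there.

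The remaining growth cone genes bind actin. Marcksl1 is a membrane-anchored kinase substrate that crosslinks it. Marcksl1 stood at 1629, 1552, 1622, 2101 and 2024 at P0 and at 488, 498 and 393 at P21 in chow offspring. In HFD offspring Marcksl1 stood at 1959, 1969, 1893, 1763 and 1884 at P0 and at 457, 472, 319 and 454 at P21. The P0 and P21 levels were clearly apart, with log2 changes of -1.95 and -2.17. Tmsb10 encodes a thymosin that sequesters actin monomers. Tmsb10 stood at 1875, 1850.1, 1364, 1867 and 1499 at P0 and at 306, 278 and 294 at P21 in chow offspring. In HFD offspring Tmsb10 stood at 1613, 2059.5, 1707, 1386 and 1015 at P0 and at 314, 262, 337 and 249.7 at P21. It fell by 2.52 in chow and 2.39 in HFD offspring, without overlap. Dbn1, which encodes drebrin, couples actin to microtubules in growth cones and later sits in dendritic spines. Dbn1 stood at 788, 1722, 651, 473 and 508 at P0 and at 149.9, 234 and 180.4 at P21 in chow offspring. In HFD offspring Dbn1 stood at 1719, 1152, 861, 1339 and 426 at P0 and at 173, 204, 136 and 164 at P21. Dbn1 varied widely among P0 libraries of each diet, yet all P21 libraries were lower (-1.98 in chow and -2.56 in HFD offspring). Fscn1, encoding the actin bundler fascin of filopodia, had the smallest chow fall of the group at -1.11. Fscn1 stood at 171, 279.4, 370.1, 412 and 448 at P0 and at 124, 142 and 180.1 at P21 in chow offspring. In HFD offspring Fscn1 stood at 244, 323, 259, 288 and 552 at P0 and at 97.2, 141, 103 and 122 at P21. In chow offspring P0 replicate 1 fell within the P21 range, so the ages overlapped, while in HFD offspring they did not (-1.47).

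All 7 members that encode surface, secreted and other proteins fell in chow offspring and 6 of 7 fell in HFD offspring, with medians of -4.13 and -4.27, the largest of the 5 role groups. Cxadr is a cell adhesion protein also known as the coxsackievirus and adenovirus receptor. In log2(value + 1) it had the largest fall of any member in chow offspring. As a ratio of the P0 to the P21 mean, Igfbpl1 fell more there (100 against 54.5), with P21 values near 0. Cxadr stood at 343, 436, 379, 451 and 493 at P0 and at 2.72, 14.1 and 6.30 at P21 in chow offspring. In HFD offspring Cxadr stood at 316, 339.9, 372, 369 and 632 at P0 and at 5.40, 11.6, 8.11 and 6.19 at P21. Its log2 change was -5.81 (SE 0.33, limma adjusted p = 2.41e-07) in chow and -5.53 (SE 0.24) in HFD offspring, with ages far apart. Gpc2 encodes a glypican, a heparan sulfate proteoglycan of growing axons. Gpc2 stood at 65.8, 56.7, 94.2, 76.1 and 56.3 at P0 and at 0.77, 1.98 and 1.88 at P21 in chow offspring. In HFD offspring Gpc2 stood at 30.8, 48.3, 60.7, 50.6 and 86.0 at P0 and at 0.77, 2.25, 1.19 and 1.56 at P21. The ages lay far apart here too (-4.81, SE 0.26, in chow and -4.49, SE 0.30, in HFD offspring). Another gene model on the same strand, Gm43720, is the largest partner in the 55.6% of the exonic bases of Gpc2 that are shared. How reads there were assigned is not given.

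B3gnt5 encodes a glycosyltransferase that builds lacto-series glycolipids. B3gnt5 stood at 28.0, 40.0, 39.4, 34.4 and 42.1 at P0 and at 2.27, 0.66 and 0 at P21 in chow offspring. In HFD offspring B3gnt5 stood at 39.6, 30.1, 36.4, 24.7 and 48.6 at P0 and at 0.28, 1.22, 0.34 and 2.20 at P21. B3gnt5 changed by -4.41 in chow and -4.27 in HFD offspring, and chow P21 replicate 3 was listed at 0. Igfbpl1, a secreted protein related to insulin-like growth factor binding proteins, was also near the limit of detection at P21. Igfbpl1 stood at 10.8, 8.09, 14.3, 22.3 and 16.5 at P0 and at 0.24, 0.19 and 0 at P21 in chow offspring. In HFD offspring Igfbpl1 stood at 13.2, 16.9, 13.6, 8.61 and 5.79 at P0 and at 0, 1.69, 0 and 0.77 at P21. Its log2 change was -3.68 in chow and -3.01 in HFD offspring, with no overlap between ages.

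Nrep, the neuronal regeneration related protein, is high in growing and regenerating neurons. Nrep stood at 1914, 1627, 1256, 1473 and 1456 at P0 and at 51.9, 91.8 and 135 at P21 in chow offspring. In HFD offspring Nrep stood at 1759, 1851, 2041, 1496 and 1128 at P0 and at 45.7, 51.5, 59.4 and 27.5 at P21. Nrep changed by -4.13 (SE 0.26) in chow and -5.16 (SE 0.22) in HFD offspring. Cd24a is a lipid-anchored surface glycoprotein of young neurons. Cd24a stood at 308, 377, 285, 375 and 295 at P0 and at 49.4, 55.5 and 61.7 at P21 in chow offspring. In HFD offspring Cd24a stood at 273, 389, 393, 362 and 197 at P0 and at 92.3, 72.5, 90.5 and 91.0 at P21. It fell by 2.54 in chow and 1.85 in HFD offspring without overlap. Elavl4 encodes HuD, an RNA-binding protein that stabilises neuronal messages and persists in mature neurons. Elavl4 stood at 292, 319, 306, 297 and 351 at P0 and at 213, 208 and 214 at P21 in chow offspring. In HFD offspring Elavl4 stood at 258, 263, 221, 213 and 373 at P0 and at 327, 284, 423 and 324 at P21. Elavl4 fell by 0.56 in chow offspring (limma adjusted p = 0.00557), while in HFD offspring the ages overlapped at 0.37 (adjusted p = 0.105). Without HFD P0 replicate 5, the highest of its group, Elavl4 was higher at P21 in HFD offspring (0.50, limma adjusted p = 0.00613), and after centring for GC content it passed as well (0.42, adjusted p = 0.0497).

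Among the proneural and differentiation transcription factors 4 of 7 fell in each diet, with medians of -0.67 in chow and -1.19 in HFD offspring. Sox11 and Sox4 encode related HMG-box factors that activate neuronal genes in newly born neurons. Sox11 stood at 301, 436, 199, 198 and 281 at P0 and at 11.5, 11.4 and 18.3 at P21 in chow offspring. In HFD offspring Sox11 stood at 302, 493, 359, 336 and 108 at P0 and at 12.5, 16.5, 15.9 and 9.51 at P21. Sox11 was lowest in replicate 5 of the HFD P0 group, yet that library still lay far above every P21 library. The log2 change was -4.24 (SE 0.25, limma adjusted p = 3.72e-07) in chow and -4.33 (SE 0.34, limma adjusted p = 3.6e-07) in HFD offspring. Sox4 stood at 346, 318, 336, 334 and 307 at P0 and at 38.4, 30.8 and 27.6 at P21 in chow offspring. In HFD offspring Sox4 stood at 197, 268, 287, 208 and 67.7 at P0 and at 7.75, 32.7, 10.7 and 21.96 at P21. Sox4 was tight in the chow P0 group, and all HFD P0 libraries lay below it. Its log2 change was -3.32 (SE 0.14) in chow and -3.47 (SE 0.43) in HFD offspring. The noncoding gene Gm26735 on the opposite strand is the largest partner in the 54.6% of the exonic bases of Sox4 that are shared. The strand setting of the counting is not given in the sources used here, so reads of such partners cannot be told apart.

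Neurog2, a proneural factor of dividing progenitors, was low at birth and near the detection limit at weaning. Neurog2 stood at 3.31, 2.04, 5.06, 2.23 and 2.20 at P0 and at 0.15, 0.17 and 0.37 at P21 in chow offspring. In HFD offspring Neurog2 stood at 1.49, 5.21, 2.60, 2.52 and 1.17 at P0 and at 1.12, 0.56, 0.03 and 0.37 at P21. It fell by 1.64 in chow and 1.19 in HFD offspring. Neurod1 acts after the neurogenins in neuronal differentiation. Neurod1 stood at 16.4, 9.25, 10.7, 6.69 and 4.20 at P0 and at 2.92, 4.68 and 9.01 at P21 in chow offspring. In HFD offspring Neurod1 stood at 15.8, 15.7, 16.9, 15.4 and 9.10 at P0 and at 2.67, 2.61, 3.29 and 2.66 at P21. In chow offspring the ages overlapped (-0.67, limma adjusted p = 0.223), and in HFD offspring they did not (-2.01, SE 0.26, limma adjusted p = 2.43e-05). Chow P21 replicate 3 held more Neurod1 than any other P21 library. Of the exonic bases of Neurod1 13% are shared, with Cerkl on the same strand as the largest partner.

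Myt1l encodes a zinc finger protein that keeps non-neuronal genes off and stays on in neurons. Myt1l stood at 222, 206, 159, 182 and 217 at P0 and at 114, 124 and 141 at P21 in chow offspring. In HFD offspring Myt1l stood at 212, 171, 149.6, 182 and 218 at P0 and at 164, 138, 149.8 and 126 at P21. Myt1l fell by 0.64 in chow offspring and was at -0.36 in HFD offspring (limma adjusted p = 0.0648), where the ages overlapped. Myt1, its relative in progenitors, and Insm1, a zinc finger factor of new neurons and endocrine cells, did not pass in either diet. Myt1 stood at 7.20, 13.6, 10.9, 16.9 and 10.5 at P0 and at 11.1, 6.83 and 6.02 at P21 in chow offspring. In HFD offspring Myt1 stood at 10.8, 19.6, 11.1, 3.52 and 16.8 at P0 and at 5.44, 6.08, 4.71 and 7.88 at P21. Its ages overlapped in both diets, at -0.51 and -0.78 (limma adjusted p = 0.22 and 0.106). Insm1 stood at 8.79, 9.17, 3.77, 4.50 and 3.16 at P0 and at 4.28, 2.75 and 4.00 at P21 in chow offspring. In HFD offspring Insm1 stood at 4.91, 8.39, 2.00, 3.92 and 1.43 at P0 and at 3.44, 1.65, 3.29 and 5.09 at P21. For Insm1 the differences were -0.47 and -0.13, smaller than the spread between libraries (limma adjusted p = 0.335 and 0.81). In HFD offspring Myt1 passed without P0 replicate 4 (-1.12, adjusted p = 0.00675) and Myt1l without P0 replicate 3 (-0.44, adjusted p = 0.0392). Myt1l also passed there with equal column sums (-0.535, limma adjusted p = 0.00697) and in 1 fit to all 17 libraries (-0.36, 0.0405).

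All 7 subtype transcription factors fell in both diets, with medians of -1.94 in chow and -2.33 in HFD offspring. Klf7 is a zinc finger factor needed for axon growth. Klf7 stood at 107, 143, 98.8, 99.2 and 95.6 at P0 and at 13.2, 18.7 and 21.8 at P21 in chow offspring. In HFD offspring Klf7 stood at 126, 128, 117, 93.2 and 84.3 at P0 and at 14.8, 13.9, 27.3 and 16.7 at P21. Klf7 changed by -2.55 and -2.56, with no overlap. A noncoding gene on the opposite strand, Gm26649, is the largest partner in the 39.4% of its exonic bases that are shared. Bcl11a and Bcl11b encode zinc finger factors of postmitotic projection and interneurons. Bcl11a stood at 59.98, 68.4, 51.4, 60.5 and 61.1 at P0 and at 17.3, 16.3 and 17.1 at P21 in chow offspring. In HFD offspring Bcl11a stood at 58.5, 68.6, 63.2, 69.4 and 59.4 at P0 and at 9.79, 14.2, 17.6 and 15.1 at P21. Bcl11a varied little within groups and changed by -1.77 and -2.12. Bcl11b stood at 33.0, 56.2, 44.7, 81.4 and 59.2 at P0 and at 12.5, 18.2 and 18.6 at P21 in chow offspring. In HFD offspring Bcl11b stood at 31.0, 37.8, 32.3, 42.8 and 50.6 at P0 and at 12.5, 30.4, 11.5 and 22.8 at P21. Bcl11b changed by -1.64 in chow and -1.06 in HFD offspring, where P21 replicate 2 stood just below the lowest P0 library.

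Dlx1, Dlx2 and Dlx5 are homeobox genes of GABAergic neurons of the forebrain. Dlx1 stood at 29.4, 42.1, 27.2, 61.1 and 26.3 at P0 and at 7.91, 7.60 and 6.99 at P21 in chow offspring. In HFD offspring Dlx1 stood at 37.4, 39.7, 43.9, 28.8 and 19.1 at P0 and at 3.51, 5.55, 3.49 and 3.56 at P21. Dlx1 fell by 2.09 in chow and 2.75 in HFD offspring. Dlx2 stood at 27.5, 28.5, 24.03, 47.8 and 22.3 at P0 and at 5.23, 4.63 and 2.67 at P21 in chow offspring. In HFD offspring Dlx2 stood at 40.2, 27.4, 34.1, 24.1 and 9.19 at P0 and at 2.74, 4.49, 1.12 and 1.50 at P21. Dlx2 fell by 2.57 and 2.97. Dlx5 stood at 14.2, 16.2, 10.4, 21.8 and 11.0 at P0 and at 3.37, 1.98 and 3.77 at P21 in chow offspring. In HFD offspring Dlx5 stood at 20.6, 13.5, 17.7, 14.9 and 7.99 at P0 and at 2.07, 2.18, 3.12 and 1.13 at P21. For Dlx5 the changes were -1.94 and -2.33. In each of these the ages did not overlap, and chow P0 replicate 4 was the highest chow library. Onecut2, a homeobox factor of early hypothalamic neurons, was the least firm of the group. Onecut2 stood at 35.2, 42.6, 13.7, 18.2 and 9.13 at P0 and at 5.61, 5.95 and 11.3 at P21 in chow offspring. In HFD offspring Onecut2 stood at 25.4, 38.0, 32.7, 22.3 and 11.4 at P0 and at 6.17, 7.60, 10.8 and 2.59 at P21. Its change in chow offspring was -1.38 (SE 0.44, limma adjusted p = 0.0266) with overlap between ages, and it no longer passed without chow P0 replicate 1 or chow P21 replicate 1 or 2 (adjusted p from 0.0586 to 0.0966). In HFD offspring it changed by -1.81 without overlap.

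The neural progenitor and Notch genes were the most mixed group. In chow offspring 2 of 5 fell (Sox2 and Hes6), and in HFD offspring 2 of 5 fell (Notch1 and Hes6) and 1 rose (Sox3). Sox2, which keeps neural progenitors undifferentiated, is also made by glia. Sox2 stood at 113, 123, 93.3, 123 and 135 at P0 and at 56.7, 32.9 and 31.7 at P21 in chow offspring. In HFD offspring Sox2 stood at 57.7, 93.6, 56.9, 60.04 and 23.4 at P0 and at 18.4, 54.04, 28.1 and 36.2 at P21. Sox2 fell by 1.56 in chow offspring (SE 0.20, limma adjusted p = 8.78e-05). In HFD offspring, where P0 replicate 5 lay inside the P21 range, it was at -0.73 (limma adjusted p = 0.0966) and passed without that library (-1.02, adjusted p = 0.00537) or without HFD P21 replicate 2 (-0.98, adjusted p = 0.04), and was at -0.48 (adjusted p = 0.282) without HFD P21 replicate 1. Sox3 is the close relative of Sox2 on the X chromosome, with roles in the hypothalamus and pituitary. Sox3 stood at 9.61, 10.5, 1.87, 3.15 and 14.6 at P0 and at 12.99, 3.09 and 1.79 at P21 in chow offspring. In HFD offspring Sox3 stood at 2.25, 2.97, 2.00, 0.96 and 1.05 at P0 and at 5.58, 7.14, 14.5 and 17.9 at P21. Sox3 rose in HFD offspring by 2.03 (SE 0.36, limma adjusted p = 0.0004), every P21 library lying above every P0 library. In chow offspring its values were spread across the same range at both ages (-0.45, adjusted p = 0.592).

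Notch1 is a receptor that answers ligands on neighbouring cells, and Dll1 is one such ligand. Notch1 stood at 36.1, 30.8, 24.5, 18.5 and 11.1 at P0 and at 15.3, 21.6 and 20.3 at P21 in chow offspring. In HFD offspring Notch1 stood at 32.5, 52.2, 26.5, 29.3 and 13.9 at P0 and at 7.58, 8.46, 6.17 and 9.08 at P21. Notch1 changed by -0.24 in chow offspring, within the spread of the P0 libraries (limma adjusted p = 0.602), and by -1.75 in HFD offspring without overlap (SE 0.31, limma adjusted p = 0.000373). Dll1 stood at 7.69, 19.3, 15.6, 6.85 and 11.7 at P0 and at 11.8, 9.70 and 5.84 at P21 in chow offspring. In HFD offspring Dll1 stood at 13.2, 17.4, 18.4, 16.4 and 14.6 at P0 and at 11.0, 11.0, 1.97 and 12.6 at P21. Dll1 did not pass in chow (-0.34) or HFD offspring (-0.95, limma adjusted p = 0.0531), and in the latter the ages did not overlap. Its HFD age difference passed without P21 replicate 1, 2 or 4 (-1.11 to -1.17, adjusted p from 0.0351 to 0.0492). This difference also passed with a pseudocount of 4 (-0.71, limma adjusted p = 0.0438) and with equal column sums (-1.11, 0.0299). The same was so in 1 fit to all 17 libraries (-0.95, limma adjusted p = 0.041) and after centring for GC content (-0.955, 0.0436). Without P21 replicate 3, the low library, the HFD age difference of Dll1 was -0.43 (adjusted p = 0.137). A noncoding gene on the opposite strand is the largest partner in the 20.5% of the exonic bases of Dll1 that are shared. Hes6 encodes a factor that opposes Notch effectors and favours differentiation. Hes6 stood at 96.6, 88.2, 90.2, 111 and 116 at P0 and at 64.8, 47.0 and 48.8 at P21 in chow offspring. In HFD offspring Hes6 stood at 127, 122, 123, 98.1 and 99.7 at P0 and at 49.6, 49.4, 37.9 and 58.5 at P21. Hes6 fell by 0.90 in chow and 1.21 in HFD offspring, without overlap.

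**Figure D3:**
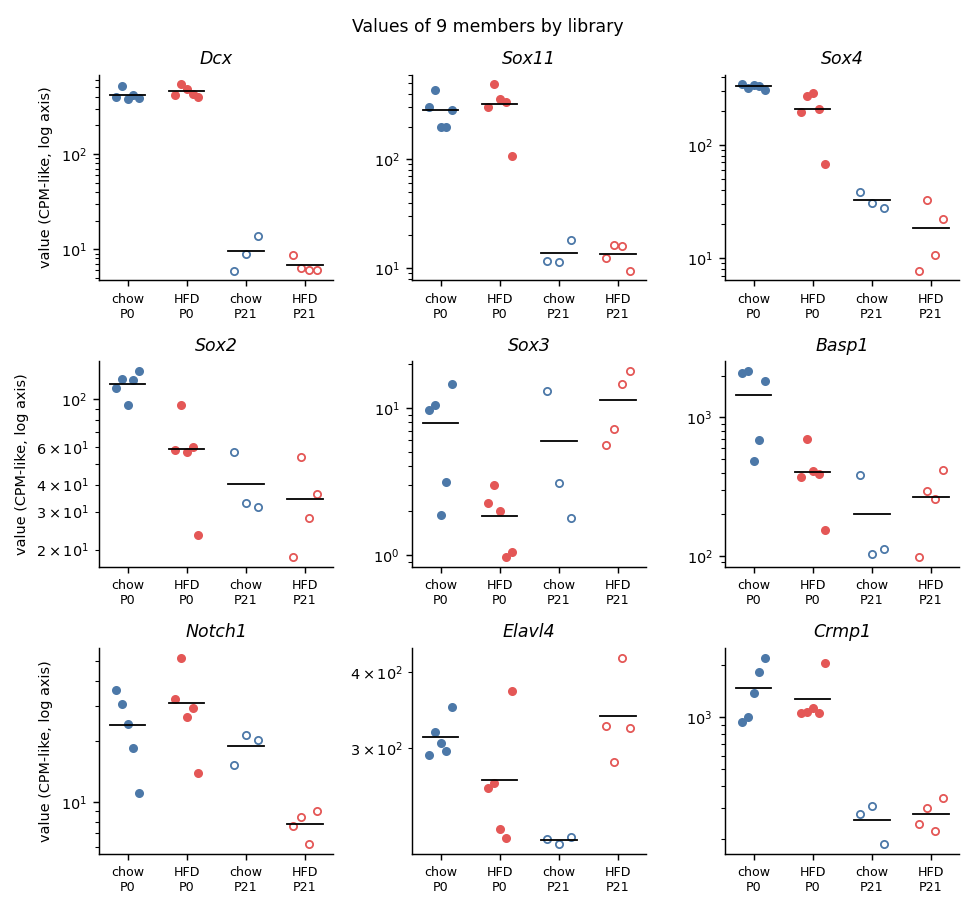
Values of 9 members in each library on log axes, by group (blue chow, red HFD, filled P0, open P21), with a bar at the group mean. Dcx, Sox11 and Sox4 fall at least several-fold from P0 to P21 in both diets, while Sox3, Notch1 and Elavl4 order the groups differently; HFD P0 replicate 5 is the low point in Sox4, Sox11, Sox2 and Basp1 and the high point in Crmp1.

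The promoters of 5 members with strong falls are shown because these genes moved together with age. Each runs from 250 bases before to 50 after a transcript start in RefSeq (GRCm38.p6), 5′ to 3′ on the strand of the gene. Capitals mark E-boxes bound by proneural factors (CAGCTG, the related CAGATG and the palindrome CATATG) and SOX-type motifs (ACAAAG and the related ACAATG). Both strands were searched, and a motif on the other strand appears as its reverse complement. Dcx is given at chrX:143933075-143933374 (minus strand), the downstream of its 2 listed starts, Trim67 at chr8:124792769-124793068 (plus strand), Sox11 at chr12:27342669-27342968 (minus strand), Sox4 at chr13:28953650-28953949 (minus strand) and Gpc2 at chr5:138279888-138280187 (minus strand).
Dcx: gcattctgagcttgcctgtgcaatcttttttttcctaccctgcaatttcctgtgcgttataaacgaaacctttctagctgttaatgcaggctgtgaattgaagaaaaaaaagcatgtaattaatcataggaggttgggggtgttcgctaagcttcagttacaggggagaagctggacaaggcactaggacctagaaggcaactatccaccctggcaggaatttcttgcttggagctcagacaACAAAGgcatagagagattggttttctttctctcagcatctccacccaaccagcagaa
Trim67: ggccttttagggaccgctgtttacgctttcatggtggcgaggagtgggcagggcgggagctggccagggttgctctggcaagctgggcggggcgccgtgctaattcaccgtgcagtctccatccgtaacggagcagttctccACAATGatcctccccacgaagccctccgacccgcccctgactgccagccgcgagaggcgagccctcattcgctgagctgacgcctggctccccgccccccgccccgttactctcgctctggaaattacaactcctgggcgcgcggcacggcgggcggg
Sox11: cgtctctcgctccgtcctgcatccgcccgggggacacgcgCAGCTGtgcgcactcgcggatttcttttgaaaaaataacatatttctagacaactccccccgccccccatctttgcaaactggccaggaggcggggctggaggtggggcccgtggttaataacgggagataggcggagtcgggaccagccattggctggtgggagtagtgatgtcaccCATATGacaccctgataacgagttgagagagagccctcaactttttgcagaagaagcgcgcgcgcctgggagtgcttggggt
Sox4: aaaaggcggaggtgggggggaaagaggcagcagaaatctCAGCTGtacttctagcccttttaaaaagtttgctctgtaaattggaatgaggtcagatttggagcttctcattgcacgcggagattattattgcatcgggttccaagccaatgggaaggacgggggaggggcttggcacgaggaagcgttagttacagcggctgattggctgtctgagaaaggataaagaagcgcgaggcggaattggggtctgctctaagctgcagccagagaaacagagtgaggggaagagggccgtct
Gpc2: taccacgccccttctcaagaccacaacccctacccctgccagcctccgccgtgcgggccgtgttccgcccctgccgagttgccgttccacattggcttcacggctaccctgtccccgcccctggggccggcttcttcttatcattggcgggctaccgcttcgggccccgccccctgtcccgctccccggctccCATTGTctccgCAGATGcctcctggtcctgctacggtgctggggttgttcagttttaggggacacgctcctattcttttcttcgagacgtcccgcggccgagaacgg
Dcx and Trim67 hold 1 SOX-type motif each and no E-box, Sox11 holds 2 E-boxes, Sox4 holds 1, and Gpc2 holds 1 of each kind. RefSeq promoters were at hand for 27 of the members, 42 starts in all. Any of the E-boxes was in 35.7% of these 42 promoters and in 27.6% of 14387 promoters of genes in the table, and any SOX-type motif in 38.1% and 20.5%. These are descriptions of letters in a window and not of binding.

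Genes of the same pathways that are not among the members moved less uniformly with age. Of 35 other Notch pathway genes 10 fell and 4 rose in chow offspring, and 18 fell and 6 rose in HFD offspring. In chow offspring those with the smallest p were the Notch regulator Dtx4 at -1.78 and the target genes Heyl at 1.66 and Hey1 at 1.23. In HFD offspring they were Dtx4 at -2.44, the receptor Notch3 at -2.10 and the effector Hes5 at -2.35. Of 36 other Sox, proneural and differentiation factors 14 fell and 4 rose in chow offspring, led by Sox12 (-2.99), Klf9 (2.43) and the neuronal tubulin gene Tubb3 (-1.72). In HFD offspring 22 fell and 2 rose, led by Klf6 (-1.61), Neurod6 (-2.45) and Sox12 (-3.47), the third SOXC gene beside Sox4 and Sox11. Of 21 paralogs of the growth cone members and of Elavl4 and Gpc2, 12 fell and 2 rose in chow offspring and 14 fell and 2 rose in HFD offspring. Those with the smallest p were the doublecortin-like kinases Dclk1 (-1.51) and Dclk2 (-1.19) and the stathmin Stmn4 (-1.43) in chow offspring. In HFD offspring they were Elavl3 (-1.75), Dpysl4 (-1.84) and Dclk1 (-1.12).

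Genes of mature neurons went the other way and those of dividing cells the same way as the members. Of 38 mature neuron genes 27 rose and 1 fell in chow offspring, among them the neuronal enolase Eno2 (2.52) and the sodium channel subunit Scn2b (4.14). In HFD offspring 26 rose and 1 fell, led by Eno2 (3.02), neurogranin, Nrgn (2.11), and the sodium pump subunit Atp1b1 (1.95). Of 25 genes of cycling cells 21 fell and none rose in chow offspring, led by Rrm2 (-2.88), Ccna2 (-2.24) and Hmgb2 (-1.67). In HFD offspring 20 fell and none rose, led by Hmgb2 (-2.60), Ccnb1 (-3.20) and Cdk1 (-2.69). The cycling list summed to 384 to 489.5 in chow P0 and 149 to 272 in chow P21 libraries.

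**Figure D4:**
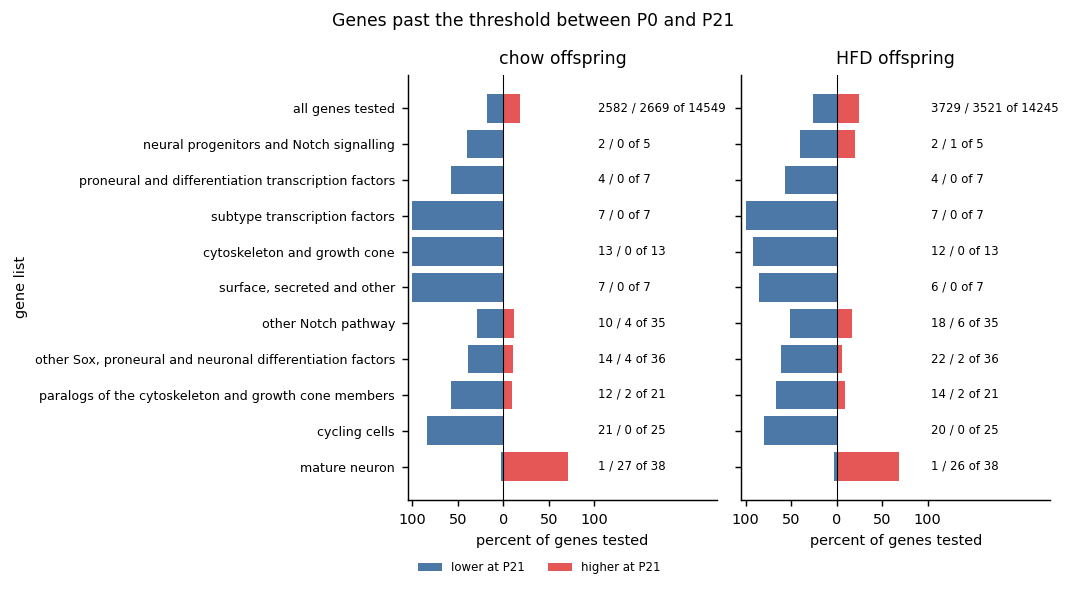
Percent of the genes tested in each list that passed the threshold lower (blue, left) or higher (red, right) at P21 than at P0, in chow and in HFD offspring, with lower / higher counts of the number tested at the right. The 5 member groups extend to the left, fully for the 7 subtype factors in both diets; mature neuron genes extend to the right, with 27 and 26 of 38 higher.

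Setting HFD against chow offspring at birth asked whether the dam's diet altered these genes at birth. None of the 39 members passed with limma, against 0.291% of the 14086 genes tested. At an unadjusted p under 0.05 there were 5 members, where 9.28% of all genes lay under it. A count test, edgeR, called none on the P0 libraries with recovered reads, chow replicates 2, 4 and 5 and HFD replicates 1 and 4. With these few libraries it called 0 higher and 3 lower of all 15139 genes tested. The members' median difference was -0.06, against -0.002 over all genes. For 29 of the 39 the 95% interval of the difference lay within 1 log2 unit of 0 on either side.

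Sox2 had the smallest p at P0. It stood at 113, 123, 93.3, 123 and 135 in chow and 57.7, 93.6, 56.9, 60.04 and 23.4 in HFD libraries, that is, 117 ± 15.6 and 58.3 ± 24.8 (mean ± SD, n = 5 each). The groups met only where the highest HFD library, replicate 2, came to the lowest chow library, replicate 3. The log2 difference was -1.11 (SE 0.27, 95% interval -1.69 to -0.53, limma adjusted p = 0.123). It passed without HFD replicate 2 (-1.31, adjusted p = 0.0412) and without HFD replicate 5 (-0.82, adjusted p = 0.0336), the latter being the lowest library. Over the other leave-one-out fits and settings it did not pass.

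Basp1 and Sox3 followed, and both were uneven within the chow group, where replicates 1, 2 and 5 were high. Basp1 stood at 2094, 2170.3, 483, 688 and 1819 in chow and 372, 699.6, 412, 388 and 154 in HFD libraries, a difference of -1.75 (SE 0.44, limma adjusted p = 0.143) with 2 chow libraries inside the HFD range. Sox3 stood at 9.61, 10.5, 1.87, 3.15 and 14.6 in chow and 2.25, 2.97, 2.00, 0.96 and 1.05 in HFD libraries, a difference of -1.44 (SE 0.44, limma adjusted p = 0.255). Without HFD replicate 5 the Basp1 difference was -1.44 (adjusted p = 0.0889) and the Sox3 difference -1.33 (adjusted p = 0.161). Sox4 was the member whose diet groups did not overlap at P0, where 1.71% of all genes lay apart in that direction. It stood at 346, 318, 336, 334 and 307 in chow and 197, 268, 287, 208 and 67.7 in HFD libraries, a difference of -0.83 (SE 0.30, limma adjusted p = 0.381), and of -0.47 without HFD replicate 5.

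Neurod1 was the member with the largest positive difference at P0, 0.66 (SE 0.30, limma adjusted p = 0.524), and Bcl11b was at -0.45 (adjusted p = 0.572). Their diet groups overlapped, and without HFD replicate 5 the differences were 0.81 and -0.55. Of the 39 intervals at P0, those of Sox2, Basp1, Sox3, Sox4 and Neurod1 excluded 0. Dcx differed by 0.12 (95% interval -0.19 to 0.42), Sox11 by 0.08 (-0.63 to 0.80) and Stmn2 by -0.02 (-0.37 to 0.33). Stmn1 was at -0.12 (-0.59 to 0.35), Gap43 at -0.15 (-0.57 to 0.27) and Notch1 at 0.33 (-0.40 to 1.06). Without HFD replicate 5 Sox11 was at 0.43 (adjusted p = 0.326) and Notch1 at 0.575 (adjusted p = 0.341). In the same fit Dcx was at 0.16, Stmn2 at -0.05, Stmn1 at -0.16 and Gap43 at -0.22. The other 27 members lay between -0.49 (Insm1) and 0.45 (Dll1), with limma adjusted p of at least 0.637.

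None of the related lists passed at P0 either. The smallest p among them belonged to Sox21 (-1.41, limma adjusted p = 0.123), Id4 (-1.73, 0.186), Tcf3 (0.57) and Stmn4 (-0.70, 0.143). Among Notch genes Dll3 was at -0.67, Lfng at 0.61 and Mib1 at -0.66. Among mature neuron genes Vamp1 was at 0.69, Nefh at -0.51 and Kcnc1 at -0.52, and among cycling genes Rrm2 was at -0.56, Bub1 at 1.06 and Mki67 at 1.38. Among paralogs Elavl1 was at -0.34 and Trim9 at 0.32. The radial glia sums overlapped between diets, 1261 to 2244 in chow and 1005 to 1751 in HFD libraries, as did those of the POMC list, 2449 to 6156 and 2449 to 6350. Pomc differed by -1.16 (adjusted p = 0.621) and Cartpt by -0.53 (adjusted p = 0.819).

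**Figure D5:**
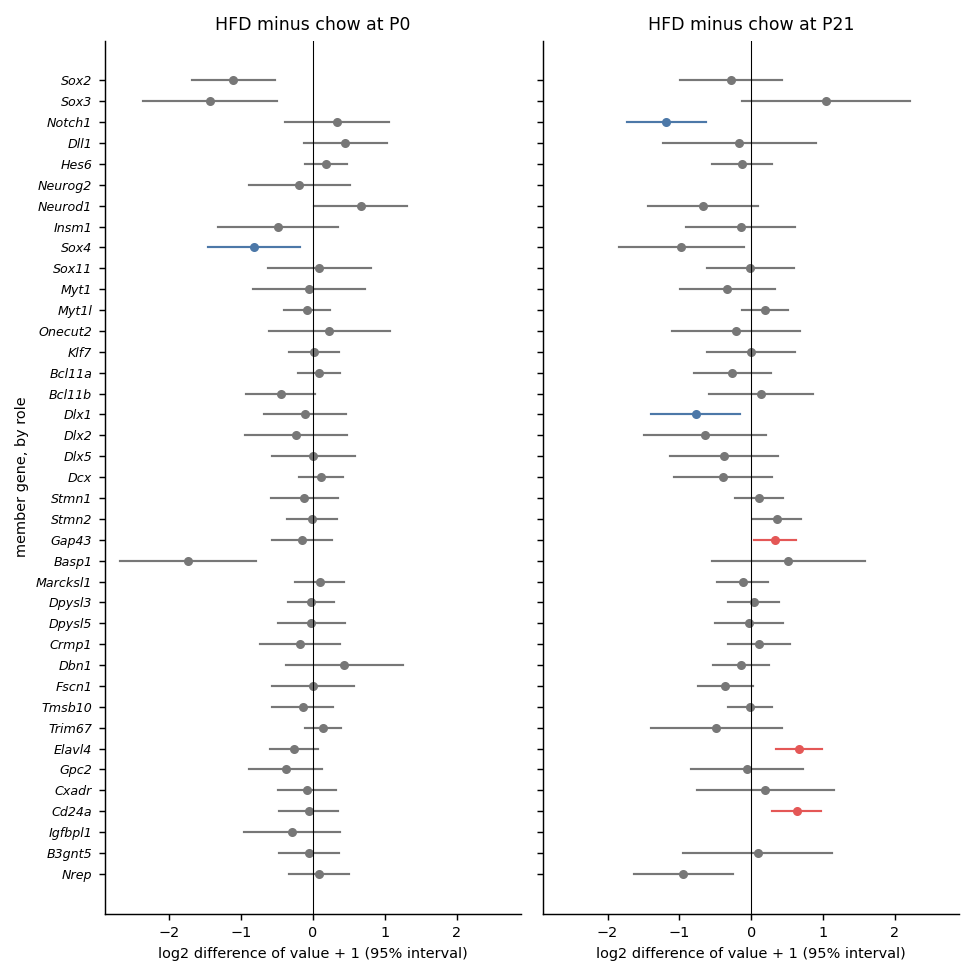
Log2 difference of HFD from chow offspring for each member at P0 (left, 39 members) and P21 (right, 37 members), with 95% intervals; grey marks members whose groups overlap, blue those with all HFD libraries lower and red those with all HFD libraries higher. At P0 Sox4 is blue; at P21 Notch1 and Dlx1 are blue and Gap43, Elavl4 and Cd24a are red, and no member passed the adjusted threshold at either age.

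At P21 the same diet comparison covered 37 members, since Neurog2 and Igfbpl1 were too low to be tested. None passed with limma, against 0.178% of the 14070 genes tested. At an unadjusted p under 0.05 there were 8 members, where 17% of all genes lay under it. The HFD libraries lay wholly above the chow libraries in 3 members and wholly below in 2, where 8.34% and 7.78% of all genes did so. The members' median was -0.12 against -0.02 over all genes, and 22 of the 37 intervals lay within 1 log2 unit of 0.

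Notch1 had the smallest p at P21, at 15.3, 21.6 and 20.3 in chow and 7.58, 8.46, 6.17 and 9.08 in HFD libraries. Every HFD library was lower, with a log2 difference of -1.18 (SE 0.25, 95% interval -1.74 to -0.63, limma adjusted p = 0.0792). Elavl4 stood at 213, 208 and 214 in chow and 327, 284, 423 and 324 in HFD libraries. All HFD libraries were higher, by 0.66 (SE 0.15, 0.34 to 0.98, limma adjusted p = 0.081). Cd24a stood at 49.4, 55.5 and 61.7 in chow and 92.3, 72.5, 90.5 and 91.0 in HFD libraries, again all higher (0.63, SE 0.16, limma adjusted p = 0.103). Nrep at -0.95 (adjusted p = 0.173) and Sox4 at -0.98 (adjusted p = 0.245) overlapped between diets, while Dlx1 at -0.78 (adjusted p = 0.203) and Gap43 at 0.33 (adjusted p = 0.246) did not. In Nrep the difference was -0.63 without chow replicate 3 and -1.31 without chow replicate 1.

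Marker lists moved with diet in these P21 libraries, and their part in the differences of Notch1, Elavl4 and Cd24a was not tested. The astrocyte sum was 5421 to 7895 in chow and 2439 to 4177 in HFD libraries. All 12 genes of that list were lower, of which Agt (-1.15), Gjb6 (-1.31) and Apoe (-1.16) passed with limma. The oligodendrocyte sum was 8394 to 18730 in chow and 4086 to 7508 in HFD libraries, all 14 genes being lower and none passing. Sums were 414 to 708 and 249 to 377 for 12 microglia genes and 124 to 178 and 61.4 to 97.2 for 12 endothelial and mural genes. The POMC list was at 11660 to 19320 in chow and 17900 to 20360 in HFD libraries. In it Cartpt (1.91, limma adjusted p = 0.0137) and Asb4 (1.73) passed, and Pomc was at 0.49 (adjusted p = 0.447).

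Of the 37 intervals at P21, those of Notch1, Elavl4, Cd24a, Nrep, Dlx1, Sox4, Gap43 and Stmn2 excluded 0. Dcx differed by -0.39 (95% interval -1.07 to 0.29), Sox11 by -0.01 (-0.62 to 0.60) and Stmn1 by 0.11 (-0.22 to 0.44). Stmn2 was at 0.36 (adjusted p = 0.26), Sox2 at -0.29 and Neurod1 at -0.67. The remaining 24 members lay between -0.64 (Dlx2) and 1.04 (Sox3), with limma adjusted p of at least 0.326. No gene of the related lists passed at P21. Over all 14070 genes tested 7330 lay below 0. Of the 35 other Notch genes 22 did so, with the smallest p for Hes5 (-1.21, limma adjusted p = 0.0797), Lfng (-1.08) and Aph1a (-0.64). Of 34 other Sox and proneural factors 27 lay below 0, led by the glial genes Sox8 (-1.03), Sox10 (-1.09) and Sox9 (-0.83). Among paralogs Gpc1 was at -1.08, Dbnl at 0.41 and Gpc4 at 0.90. Of 38 mature neuron genes 31 lay below 0, Scn4b at -1.79 and Vamp1 at -0.77 among them. Of 21 cycling genes tested 17 lay below 0, with Hmgb2 at -0.98 and Ccnb1 at -1.25, while Mcm6 was at 0.70.

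Whether the age change itself differed between diets was tested as an interaction of diet and age in 1 fit to the 17 libraries. None of the 39 members passed with limma, against 0.0266% of 15037 genes, and 7 members had an unadjusted p under 0.05, where 15.2% of all genes did. Elavl4 was first, at 0.92 (SE 0.23, limma adjusted p = 0.088), its chow and HFD age differences being -0.56 and 0.37. Sox3 was at 2.48 (SE 0.74, adjusted p = 0.143), Notch1 at -1.51 (SE 0.48, adjusted p = 0.156) and Basp1 at 2.26 (SE 0.75, adjusted p = 0.171). Nrep was at -1.03 (adjusted p = 0.193), Neurod1 at -1.34 (adjusted p = 0.198) and Sox2 at 0.82 (adjusted p = 0.407). The members that passed in 1 diet alone are therefore not shown to differ between diets. Without HFD P0 replicate 5 Notch1 (-1.76, limma adjusted p = 0.0307) and Elavl4 (1.05, adjusted p = 0.0091) passed. Over all genes 301 passed higher and 256 lower in that fit, against 2 and 2 with all libraries. That fit keeps HFD P0 libraries with Pomc at 90.7 to 246 beside chow P0 libraries at 146 to 1308. The interval of the interaction excluded 0 in Elavl4, Sox3, Notch1, Basp1, Nrep, Neurod1 and Cd24a. It included 0 in 4 genes with large falls, Dcx differing by -0.51 (95% interval -1.07 to 0.06), Sox11 by -0.10 (-1.09 to 0.90), Sox4 by -0.15 (-1.25 to 0.95) and Dpysl3 by 0.06 (-0.35 to 0.47). The other members with a fixed description were Stmn1 at 0.23, Stmn2 at 0.38 and Gap43 at 0.48.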

How the data were processed

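Ribosome-bound RNA of 17 mouse samples was sequenced as single 50-base reads from Nextera XT libraries, per the labels' protocols. The submitters' processing notes name mm10, TopHat2 2.0.13, HTSeq 0.6.1, Picard 1.80, FastQC and edgeR. The sources used here give no settings and no strand. Values of the table that the authors deposited are normalized signal in CPM-like units with 2 decimals, and not counts. From the steps between values, 100.0% of non-zero values in each of the 17 libraries lay at whole reads within 0.0051 units. Reads were taken as recovered in 6 libraries, which this share alone does not set apart from the others. An edgeR test foreseen for counts was run on those 6 alone, in each comparison on the ones in the groups compared. At P0 these were chow replicates 2, 4 and 5 and HFD replicates 1 and 4, and it called 0 members and 3 of 15139 genes. In chow by age they were P0 replicates 2, 4 and 5 and P21 replicate 3, with a median log2 change of the members of -2.37. The table also had 15 columns with no name, all empty.

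A gene entered a fit if its value exceeded 1 in a number of libraries no smaller than the smaller group. The fits used limma 3.58.1 (R 4.3.3) with a pseudocount of 1 before taking log2, trended non-robust prior variance, no covariate and only the groups compared. Coordinates and exon lengths come from GENCODE on GRCm38, the assembly of mm10. The scripts were tested on simulated data. Members and lists were chosen with earlier results of these data known. Every member was described, 9 of them (Dcx, Sox11, Sox4, Stmn1, Stmn2, Gap43, Sox2, Notch1 and Neurod1) in every comparison, with the 6 smallest p per comparison, the extremes of each role group, 3 genes per context list by p, marker lists by count and sum, and Pomc and Cartpt. Some genes of the context and marker lists that this rule would name are not reported here. Alternatives covered pseudocount, filter, scaling, prior, replicate block, a joint fit, GC content and leaving out each library.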

Additional observations from a re-analysis of the deposited data

Results flagged for a closer look

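Of 117 combinations of a member and a group of 4 or 5 libraries, 16 held a library far from the rest, its gap to the nearest other library taking most of the range of the group. For independent, normally distributed values chance gives about 1 in 20 such groups, 5.85 here. The members share libraries and their values were not transformed, so 5.85 is only a rough guide for the 16 found. HFD P0 replicate 5 supplied 5 of them: Crmp1 at 2032 (others 1054 to 1131), Dpysl5 at 924 (411 to 503), Cxadr at 632 (316.5 to 372), Fscn1 at 552 (244 to 323) and, on the low side, Neurod1 at 9.10 (15.4 to 16.9). Chow P0 replicate 2 was high in Dbn1 at 1722 (473 to 788), Dcx at 517 (379.8 to 413) and Klf7 at 143 (95.6 to 107). Chow P0 replicate 4 was high in Dlx2 at 47.8 (22.3 to 28.5), and chow P0 replicate 1 was low in Trim67 at 138.5 (163.5 to 165).

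In the HFD P21 group replicate 3 was low in Dll1 at 1.97 (11.0 to 12.6) and Marcksl1 at 319 (454 to 472) and high in Neurod1 at 3.29 (2.61 to 2.67). Replicate 2 was high in Dlx1 at 5.55 (3.49 to 3.56) and low in Cd24a at 72.5 (90.5 to 92.3), and replicate 1 was high in Dcx at 8.63 (5.99 to 6.35).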

How the results depend on the processing

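Counts of members past the threshold kept within 1.5 times of those reported in 99 alternatives and moved further in 5. At P0 the count of 0 became 1 with the replicate block (Basp1, adjusted p = 0.0438), and ran from 0 to 1 when each library was left out. The interaction count of 0 became 2 with the replicate block (Notch1, adjusted p = 0.0433, and Elavl4, 0.033), and ran from 0 to 2 in the leave-one-out fits. These fits gave 0 to 0 members at P21, 32 to 33 in chow by age and 32 to 35 in HFD by age. The labels do not say whether replicate numbers pair the libraries, and the values did not show it throughout: same-numbered correlations ran from -0.17 to 0.49, and not every library correlated best with its own number, though replicates 2 and 5 at P0 did (0.27 and 0.49). With the block 33 members passed in chow by age and 36 in HFD by age. Over all genes 2548 passed higher and 2350 lower of 14549 in chow by age. In HFD by age 3991 passed higher and 4157 lower of 14245.

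Some differences that had not passed changed sign. At P0 Stmn2 was 0.007 with equal column sums and ran from -0.055 to 0.029 in leave-one-out fits, and Sox11 ran from -0.11 to 0.43. On the P0 libraries with recovered reads Dcx was -0.03 with edgeR and -0.041 with limma. At P21 Sox11 was 0.008 with median-of-ratios scaling and 0.14 with the replicate block, and ran from -0.12 to 0.20. By age in chow Sox3 ran from -1.14 to 0.026. On the chow libraries with recovered reads, which hold P21 replicate 3 alone, Notch1 was 0.009 with edgeR and 0.12 with limma. Neurod1 was 0.42 and 0.43 there, against -0.67 in the reported fit. Chow P21 replicate 3 stood at 9.01 in Neurod1, above replicates 1 and 2 at 2.92 and 4.68. By age in HFD Insm1 was 0.20 after centring for GC content and ran from -0.35 to 0.13. In the interaction Sox11 was 0.017 with the block and ran from -0.45 to 0.12, and Sox4 from -0.51 to 0.16. The cause was not tested.

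The GC correction and the 6-library fits were chosen after seeing the data. The latter used only those of the 6 libraries in the groups compared, and by age in chow hold 1 chow P21 library, assumed to vary like the others. By age in chow the members' median log2 change was -2.37 with edgeR and -2.04 with limma in these fits, against -1.95 in the reported fit. Stmn1 was at -2.01 and Gap43 at -1.62 with edgeR, against -1.95 and -1.32. Equal column sums gave 2851 genes higher and 4583 lower in HFD by age, against 3521 and 3729, and a median over all genes of -0.21, with 1 member higher and 33 lower. Over all genes at P0, 1 higher and 40 lower became 16 and 88 with the block and 26 and 109 without HFD replicate 5. At P21, 14 higher and 11 lower became 2 and 1 with the block, and in leave-one-out fits ran from 3 and 0 (without HFD replicate 1) to 14 and 37 (without chow replicate 1). In the interaction 2 and 2 became 65 and 68 with the block. Members near the 3-read limit at P21, Neurog2, Igfbpl1 and B3gnt5, are the least precise.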

Other observations

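Within the P0 groups some members ordered the libraries as Pomc did and others did not, a pattern noticed after the values were seen. In chow P0 replicates 1 to 5 Pomc stood at 146, 224, 657, 891 and 1308 and Crmp1 at 942, 1002, 1381, 1826 and 2196, the same order, and Fscn1 at 171, 279.4, 370.1, 412 and 448 kept it too. Notch1 had the reverse order, at 36.1, 30.8, 24.5, 18.5 and 11.1. In the HFD P0 group replicate 5 was highest in Pomc (90.7, 246, 102, 181 and 1057) and in Crmp1 and Fscn1, and lowest in Notch1 (32.5, 52.2, 26.5, 29.3 and 13.9). Fabp7, a radial glia gene, stood at 1707, 1619, 1232, 1051 and 907 in chow P0 and 1192, 1066, 1272, 907 and 632 in HFD P0 libraries.

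Basp1 and Sox3, and at P21 also Sox2 and Sox4, shared a pattern over libraries with genes outside the set. All of these genes were chosen after their values were seen. Where chow P0 replicates 1, 2 and 5 were high in Basp1 and Sox3, Id4, an inhibitor of proneural factors, stood at 349, 347, 91.6, 159.5 and 295. At P21 Dapk3, a kinase gene, stood at 68.5, 14.1 and 7.86 in chow and 2.17, 76.1, 60.6 and 84.3 in HFD libraries, and Alyref, an mRNA export gene, at 52.7, 28.2 and 22.4 and 10.1, 60.05, 36.0 and 60.4. Basp1 was likewise highest in chow replicate 1 and lowest in HFD replicate 1 within its P21 groups. The same held for Sox2 (56.7 and 18.4), Sox3 (12.99 and 5.58) and Sox4 (38.4 and 7.75). At P0 Dapk3 stood at 51.7, 56.1, 32.7, 52.1 and 77.1 in chow and 4.14, 4.62, 6.06, 3.84 and 2.11 in HFD libraries. Alyref stood there at 110, 92.6, 86.0, 109.7 and 123 in chow and 24.8, 29.75, 33.5, 22.3 and 9.10 in HFD libraries. Why these genes ran alike was not tested.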
